A study of Sus scrofa with 21 samples.

Results

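The comparison described here was the second contrast of the study, high against low sperm hyperactivity at the day of ejaculation in Duroc boars. It was read from the testis RNA of 8 of the 21 boars in the series. The publication lists 4 Duroc boars with low hyperactivity and the series holds 3 Low Duroc libraries, so the contrast was not complete here. The members were the 8 Duroc libraries, and their groups were taken from the deposited description alone, which puts D1, D2, D3, D4 and D5 in the High group and D6, D7 and D9 in the Low group. All were boars of an artificial insemination station whose testis tissue was collected at slaughter, without any treatment, and the only group difference given is the hyperactivity of their ejaculated sperm. The other 13 libraries came from Landrace boars, of which 4 with high and 4 with low hyperactivity at the day of ejaculation were used below for comparison. Each library stands for 1 boar. Ages at semen collection are given in the publication only as a range over the boars of the study and not by group, so age was not compared.

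The deposited labels and the list of boars in the publication did not give the same groups. By boar name, 7 of the 8 Duroc boars stood in the opposite group in that list, and D5 was in the high group in both. By sequencing depth, the 8 libraries paired with 8 different entries of the list, and all 8 then fell in the group of their deposited label, under another boar name in all 8 cases. The deposited labels were used throughout and no boar was moved. No measurement of hyperactivity was used, so a label could not be checked from the testis RNA.

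Hyperactivity is the vigorous, asymmetric tail beat that sperm take up before they reach the oocyte. It depends on calcium entry through the CatSper channel of the tail, on intracellular pH and bicarbonate, on protein kinase A anchored in the fibrous sheath, and on ATP from glycolysis and mitochondria that drives the axonemal dyneins. The testis builds these parts in spermatids, in which transcription ends as protamines replace the histones, while Sertoli, Leydig and peritubular cells make up the somatic part of the tissue. A bulk library sums all of these cells, so fewer cells of a type and less RNA per cell cannot be told apart.

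The Duroc libraries held between 41358671 counts on genes in D1 and 125576407 in D3. The count totals did not separate the groups (two-sided exact permutation test over 56 assignments of the 8 boars, p = 0.536), nor did the share of reads outside annotated genes, which ran from 21.5% in D5 to 30.0% in D3 (exact permutation p = 0.893). The smallest p that this test can give with 5 against 3 boars is 0.0357. Testis identity was plain in all 8 libraries: TNP1, the main transition protein of spermatids, was at 5165 to 7037 CPM (counts scaled by library size), and the 11 spermatocyte markers summed to 1602 to 2816 CPM. AMH, a marker of immature Sertoli cells, and NANOS2, a marker of spermatogonial stem cells, had no count in any Duroc library. Of the 8 epididymal markers listed, 3 were found in the files: LCN8 had no count, RNASE10 had 8 to 37 counts and ADAM7 was at 31.3 to 54.0 CPM in each Duroc boar.

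No gene differed between the Duroc groups after correction for multiple testing. Of 13043 genes that reached 1 CPM in 4 or more Duroc libraries, 0 (0%) had an adjusted p under 0.05 in edgeR's quasi-likelihood test, and the smallest Benjamini-Hochberg adjusted p was 1. At an unadjusted p under 0.05 there were 158 genes (1.21%), of which 114 had higher and 44 lower values in the High group. edgeR's likelihood ratio test gave 0 adjusted calls and 179 unadjusted ones, and DESeq2 gave 0 and 191, with a smallest adjusted p of 0.754. For comparison, the same fit on the 8 Landrace boars of the day 0 contrast, 4 against 4, called 2682 of 12979 genes (20.7%). The biological coefficient of variation, the spread between boars of 1 group beyond counting error, was 0.301 in Duroc and 0.255 in Landrace.

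The Duroc fit bounded many of the differences. The 95% confidence interval of the log2 difference (High over Low) lay between -1 and 1 for 10148 genes, and its median half-width was 0.53. For these genes a change of more than 1 log2 unit between the labelled groups lies outside the interval. The log2 differences were above 0 in 7675 genes (58.8%) and below 0 in 5368, with a median of 0.04, and CPM values of the groups did not overlap in 183 genes (1.4%), 97 with higher and 86 with lower values in the High group.

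The labels did not order the boars along the main axis of variation. Multidimensional scaling on the 500 genes that set each pair of boars furthest apart placed 34% of the variation on dimension 1 and 17% on dimension 2. On dimension 1 the High boars D1, D4 and D5 lay at 0.99, 0.46 and 0.53, and the High boars D2 and D3 at -1.32 and -0.36. The Low boars D6 and D7 lay at -0.76 and -0.44, and D9 at 0.90, beside D1. Each side of 0 thus held boars of both labels, and the group means of 0.06 ± 0.91 (SD, n = 5) and -0.10 ± 0.88 (SD, n = 3) did not differ beyond the spread between boars (two-sided exact permutation test, p = 0.821). On dimension 2 the means were 0.23 ± 0.54 and -0.39 ± 0.55 (exact permutation p = 0.214).

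**Figure D1:**
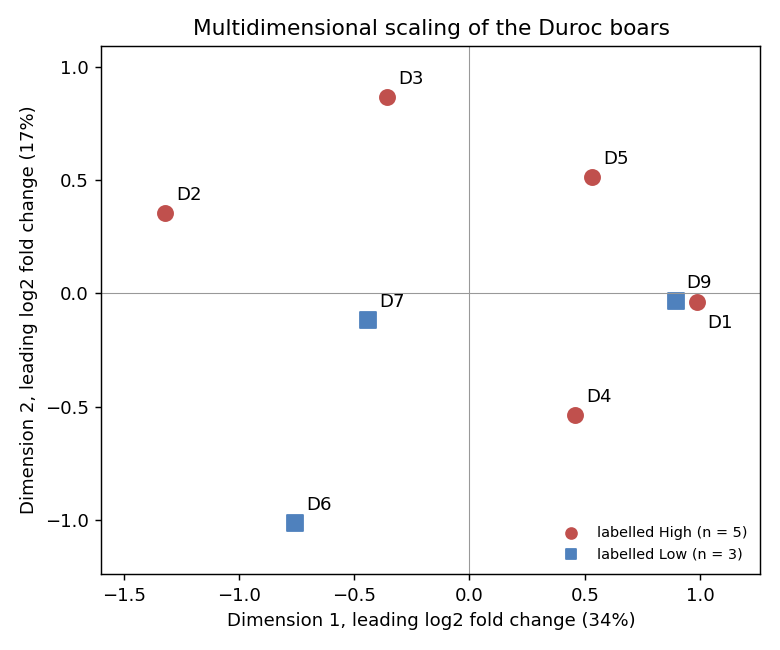
Multidimensional scaling of the 8 Duroc testis libraries, with leading log2 fold change on both axes, circles for boars labelled High and squares for boars labelled Low. Dimension 1 runs from D2 at -1.32 to D1 at 0.99, and boars of both labels stand at either end.

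Pairwise correlations of log2 CPM gave the same picture. Pearson's r across genes was 0.950 to 0.981 in the 10 pairs within the High group, 0.967 to 0.980 in the 3 pairs within the Low group and 0.947 to 0.984 in the 15 pairs of a High with a Low boar. The closest pair of all was D1 with D9, 1 boar of each label, at 0.984. For 5 of the 8 boars the most similar other boar carried the same label, and complete-linkage clustering first split D1, D4, D5 and D9 from D2, D3, D6 and D7. No pair of libraries agreed within counting noise, with a chi-square per degree of freedom of at least 47.0, so none was treated as a repeat of another.

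The 10 named genes with the smallest p values all had higher values in the High boars. None of them passed the correction, and each adjusted p below is 1 in edgeR's quasi-likelihood test. CD9 (ENSSSCG00000022230, chr5:64420177-64459783 in Sscrofa11.1), a tetraspanin of the plasma membrane, was at 11.08, 11.9, 7.95, 9.15 and 12.6 CPM in D1 to D5 and at 4.77, 3.58 and 6.46 CPM in D6, D7 and D9. Every High boar thus lay above every Low boar, and the log2 difference was 1.09 ± 0.27 (SE) with an unadjusted p of 0.00167, the smallest of all genes. SORBS2 (ENSSSCG00000036679, chr15:46585599-46910679), an adaptor protein of actin-based adhesions, was at 20.2, 17.4, 25.0, 17.4 and 23.3 CPM against 9.59, 12.6 and 12.9 CPM. These groups did not overlap either, and their means of 20.7 ± 3.42 and 11.7 ± 1.85 CPM (SD, n = 5 and 3) differed by 0.82 ± 0.21 (SE) on the log2 scale.

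ADGRL4 (ENSSSCG00000003762, chr6:134362714-134462697), an adhesion receptor of endothelial cells, was at 50.4, 35.7, 32.6, 27.8 and 33.2 CPM in the High boars and 13, 23.3 and 20 CPM in the Low boars. The highest value was that of D1 and the lowest that of D6, and the log2 difference was 0.94 ± 0.25 (SE). The endothelial markers fixed as a list are described below and had higher mean values in the High group as well. ST8SIA6 (ENSSSCG00000011034, chr10:43601677-43755154), a sialyltransferase, was low in all boars, at 1.55 to 2.33 CPM in the High group and at 0.429, 0.432 and 1.13 CPM in D6, D7 and D9. Its log2 difference of 1.44 ± 0.43 (SE) was 2.06 when D9 was left out. EPB41L4A, a FERM domain protein, ADIG, adipogenin, B3GAT2, a glucuronosyltransferase, and SNX31, a sorting nexin, completed the genes of the first 10 without overlap. Their log2 differences were 0.79, 0.75, 0.89 and 1.41. With CPM scaled over all 21 libraries the groups did overlap for ADIG, at 37.1 CPM in D1 and 38.6 CPM in D6. PLEKHA7, a protein of adherens junctions, and KCNK2, a background potassium channel, were the remaining 2 of the 10, at 0.87 and 1.41, and in both the lowest High boar lay within the Low range.

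The potassium channel KCNK2 (chr9:128429232-128659662) shows how wide the High group could be. It was at 15, 29.9, 24.8, 6.82 and 8.97 CPM in D1 to D5 and at 7.76, 5.74 and 5.85 CPM in D6, D7 and D9. The value was high in D1, D2 and D3, whereas D4 lay within the Low range and D5 just above it. HTRA1, a secreted serine protease, had a similar shape, with 6.93 and 9.47 CPM in D2 and D3, 3.33 to 3.60 CPM in the other High boars and 1.41 to 2.99 CPM in the Low boars. SV2A, a synaptic vesicle glycoprotein, was at 11.5 and 10.5 CPM in D1 and D3 and at 4.95 to 5.40 CPM in D2, D4 and D5, against 2.83 to 4.56 CPM in the Low boars.

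**Figure D2:**
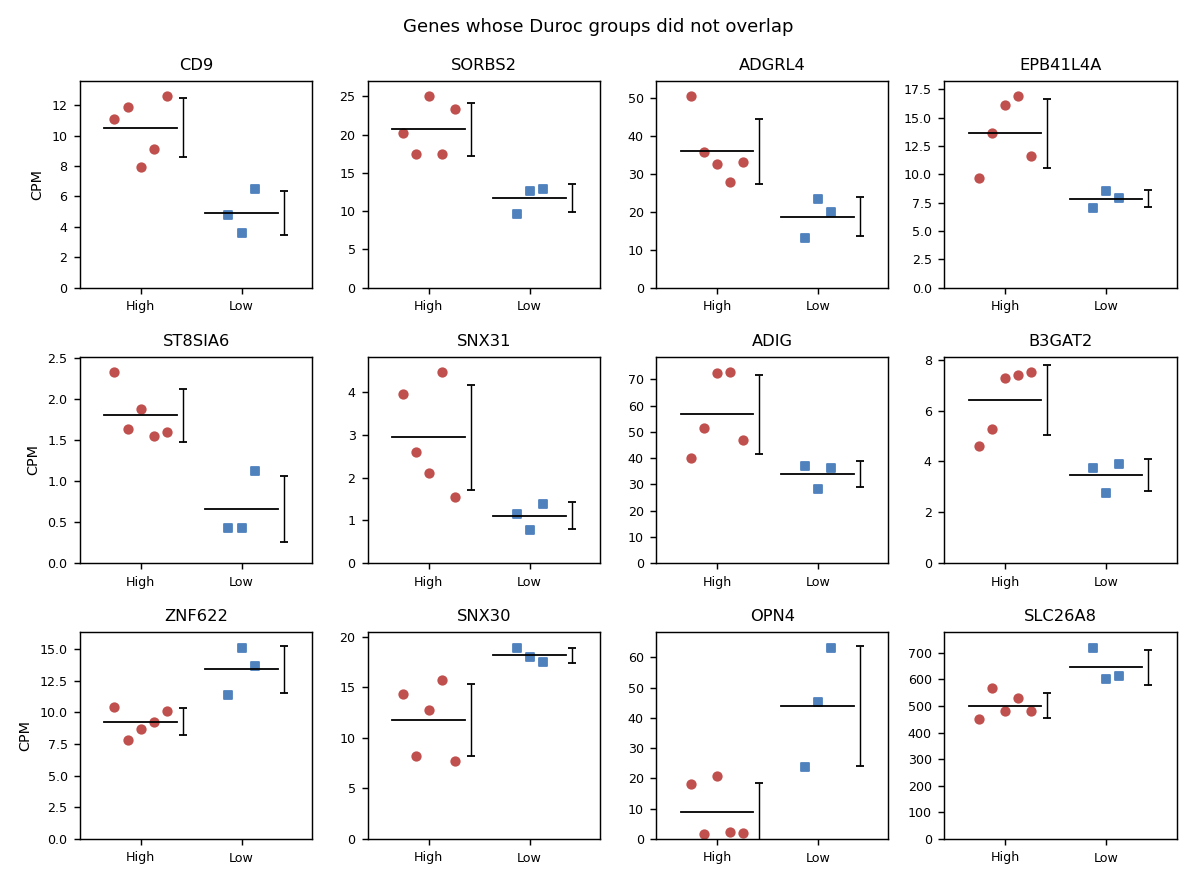
TMM-scaled CPM of 12 genes in the 8 Duroc boars, circles for D1 to D5 (High) and squares for D6, D7 and D9 (Low) from left to right, with the group mean as a line and the SD beside it. With this scaling all 12 have groups that do not overlap, as 183 of the 13043 genes do, and none has an adjusted p under 0.05.

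Among genes with lower values in the High group, OPN4 had the largest difference of those with a name and no overlap. OPN4 (ENSSSCG00000010358, chr14:87645563-87660820) codes for melanopsin, a light-sensitive opsin, and was at 18.2, 1.47, 20.6, 2.34 and 1.83 CPM in D1 to D5 and at 23.7, 45.2 and 63.3 CPM in D6, D7 and D9. The High boars formed a low set of D2, D4 and D5 and an intermediate set of D1 and D3, so that D3, at the top of the High group, lay close to D6. The log2 difference was -2.31 with a 95% interval of -4.07 to -0.54 (unadjusted p = 0.0151), the widest interval of the genes named so far. The unnamed gene ENSSSCG00000010359, chosen after its values were seen, was at 1.98, 0.207, 1.45, 0.613 and 0.241 CPM against 2.24, 2.78 and 6.74 CPM. It was low in the same boars as OPN4.

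The other 4 genes of that direction differed less. ZNF622, a zinc finger protein, was at 7.83 to 10.5 CPM in the High boars and 11.4 to 15.1 CPM in the Low boars, a log2 difference of -0.53 ± 0.20 (SE). SNX30, a sorting nexin, was at 7.74 to 15.7 CPM against 17.5 to 18.9 CPM. CTNND2, a delta-catenin, and RAX2, a retinal homeobox factor, had log2 differences of -0.63 and -0.88. RAX2 stood close to 1 CPM in the High boars, and its difference was -0.48 without D9.

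Of the parts of the sperm tail tied to hyperactivity, the CatSper channel had small log2 differences between the labelled groups. Equality of the groups was not tested. All 10 CatSper subunits were tested, 4 had log2 differences above 0 and 6 below, and they ran from -0.23 to 0.16 with a median of -0.06, beside 0.04 over all genes. No CatSper gene had an unadjusted p under 0.05. CATSPERD, an accessory subunit, was at 60.2 to 91.4 CPM in the High boars and 76.1 to 97.4 CPM in the Low boars, and CATSPER4, a pore subunit, at 24.0 to 37.6 against 30.7 to 47.3 CPM.

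Of the 9 tested genes for sperm pH, bicarbonate and potassium, 2 lay above and 7 below 0. SLC26A8 (ENSSSCG00000001555, chr7:31722409-31791620), an anion transporter of the sperm annulus, was at 449.5, 567.7, 479.5, 531.4 and 480.3 CPM in D1 to D5 and at 720.2, 600.3 and 614.9 CPM in D6, D7 and D9. All High boars lay below all Low boars, as in 1.4% of all genes, and the log2 difference was -0.36 ± 0.15 (SE, unadjusted p = 0.0357).  HVCN1, the voltage-gated proton channel, was at 68.2 to 92.7 CPM against 81.2 to 102.1 CPM, and the chloride and bicarbonate exchanger SLC26A3 at 4.98 to 16.1 CPM against 1.23 to 8.55 CPM, with overlap in both. SLC26A3 had a log2 difference of 0.99 with an interval of -0.22 to 2.20.

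Of the other tail lists, all 8 axonemal dyneins lay below 0, where 5368 of all 13043 genes did, from -0.48 to -0.003 with a median of -0.23, and 0 of them had an unadjusted p under 0.05. DNAH1, an inner arm heavy chain, was lowest, at 159, 79.7, 102, 165 and 90.6 CPM in D1 to D5 and 179, 118 and 202 CPM in D6, D7 and D9, so that D1 and D4 lay among the Low boars. The fibrous sheath and protein kinase A genes (9 tested) had a median of 0.11, the glycolytic enzymes of sperm (10 tested) 0.04, and the outer dense fibre and tektin genes (6 tested) 0.03. The 5 tested genes of the sodium-potassium and proton-potassium ATPases all lay above 0 with a median of 0.15, led by the beta subunit ATP1B1 at 0.50 ± 0.26 (SE), whose values of 29.0 to 54.9 CPM and 21.4 to 40.8 CPM overlapped.

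All 11 markers of elongating spermatids had log2 differences above 0, with a median of 0.28, a range of 0.05 to 0.68 and 0 members at an unadjusted p under 0.05. Their summed level was 10955 to 13331 CPM in the High boars and 10416 to 10689 CPM in the Low boars, and TNP1, highest in D2 at 7037 CPM, carried a large part of each sum. The mean over the markers, which weights them equally, overlapped: it stood 0.53, 0.29 and 0.28 log2 units above the mean of the 8 boars in D4, D1 and D5, but lay at -0.24 and -0.36 in D2 and D3 and at -0.34, -0.22 and 0.07 in D6, D7 and D9. Some neighbouring genes of the protamine cluster on chromosome 3 show this split. TNP2 (chr3:31868517-31871530), a transition protein, was at 210, 122, 106, 219 and 186 CPM in D1 to D5 and 79.5, 113 and 143 CPM in D6, D7 and D9. PRM3 (chr3:31865159-31866717) was at 106, 25.2, 27.5, 88.7 and 90.6 CPM against 23.1, 44.8 and 58.6 CPM, and PRM1 (chr3:31861087-31861529) was at 2068, 882, 1039, 1783 and 1884 CPM against 858, 1589 and 1308 CPM. In each of them D1, D4 and D5 were high, and D2 and D3 stood within the range of the Low boars.

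The peritubular, Leydig and endothelial marker lists varied widely between boars of the same label. The 7 peritubular and smooth muscle markers had a mean 0.88 log2 units above the average of the boars in D1, 0.68 above in D9 and 0.59 above in D5, and lay at -0.88 in D2 and -0.79 in D6. ACTA2, smooth muscle actin, was highest in the same 3 boars, at 39.7, 9.92, 20.8, 13.9 and 45.2 CPM in D1 to D5 and 7.07, 11.2 and 32.6 CPM in D6, D7 and D9. Its log2 difference of 0.61 ± 0.57 (SE) was 0.24 without D6 and 1.503 without D9.

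The Leydig list was highest in D3, D9 and D5, at 0.65, 0.52 and 0.51, and lowest in D6 and D7, at -0.53 and -0.52. LHCGR, the luteinizing hormone receptor of Leydig cells, was at 26.5, 43.6, 69.7, 23.6 and 38.5 CPM in D1 to D5 and at 21.3, 18.8 and 39.6 CPM in D6, D7 and D9. CYP17A1, the enzyme at the branch to androgens, was at 754 to 1974 CPM in the High group and 725 to 2263 CPM in the Low group, with its highest value in D9.

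All 6 endothelial markers lay above 0 with a median log2 difference of 0.61, the largest of the cell type lists with 3 or more tested members. KDR, a receptor for vascular endothelial growth factor, was at 13.5, 8.98, 21.7, 8.35 and 16.3 CPM in D1 to D5 and at 5.77, 8.04 and 12 CPM in D6, D7 and D9, and 0 of the 6 had an unadjusted p under 0.05. The list mean was 0.69 in D5 and 0.64 in D3 but -0.31 in D4 and -0.23 in D2, within the Low range of -0.82 to 0.18. Its part in the ADGRL4 values was not tested.

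The other germ cell lists and the Sertoli list had smaller median log2 differences than the elongating spermatids. The spermatogonial markers (7 tested) had a median of 0.18, the spermatocyte markers (11 tested) 0.05 and the round spermatid markers (9 tested) 0.02, and the Sertoli markers (10 tested) 0.14. The mitochondrial proteins of germ cells (6 tested) had 5 members above 0 and a median of 0.18, the genes of cholesterol synthesis (12 tested) 5 members above 0 and a median of -0.03, and the immediate early genes (6 tested) 2 members above 0 and a median of -0.14, and none of these lists had a member at an unadjusted p under 0.05. Few blood or immune markers passed the filter: 3 macrophage, 2 T cell and 2 red cell genes. The macrophage genes had a median of -0.11, the T cell genes of 0.43 and the red cell genes of 0.63. HBB, the beta chain of haemoglobin, was at 0.703 to 7.02 CPM in the High boars, highest in D5, and at 0.585 to 2.08 CPM in the Low boars.

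**Figure D3:**
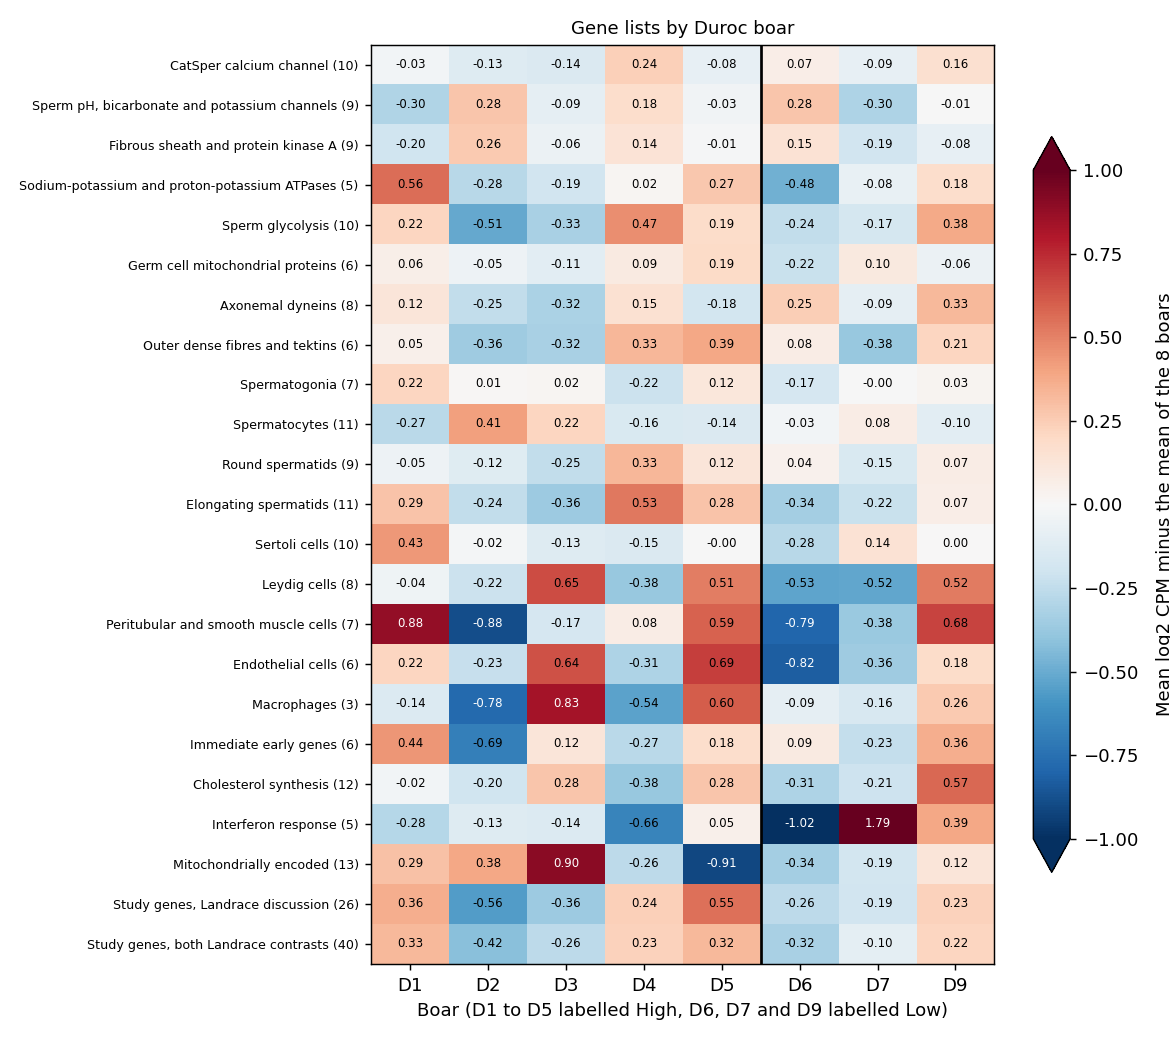
Mean log2 CPM of each gene list in each Duroc boar minus its mean over the 8 boars, with the number of tested members in brackets, a line between the High boars D1 to D5 and the Low boars, and colours that saturate at -1 and 1. Peritubular genes are high in D1, D5 and D9, interferon genes stand at 1.79 in D7, and no list separates the labels by colour.

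The 13 mitochondrially encoded genes all lay above 0, with log2 differences of 0.06 to 0.58 and a median of 0.34, and 0 had an unadjusted p under 0.05. These genes are read from 1 polycistronic genome and do not count as separate observations. Their share of all counts was 2.48%, 2.21%, 3.20%, 1.72% and 1.03% in D1 to D5 and 1.55%, 1.83% and 2.24% in D6, D7 and D9. The highest and the lowest boar, D3 and D5, were both in the High group, and the groups did not differ beyond the spread (exact permutation p = 0.643). ATP6, a subunit of ATP synthase, ran from 1207 CPM in D5 to 4059 CPM in D3, with 1548 to 2150 CPM in the Low boars.

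Interferon-induced genes set 1 Low boar apart. CXCL10 (chr8:71693641-71695948), a chemokine induced by interferon, was at 1.13, 1.24, 1.46, 0.843 and 1.97 CPM in D1 to D5, at 0.409 CPM in D6, at 19.7 CPM in D7 and at 1.49 CPM in D9. Its neighbour CXCL9 (chr8:71665541-71670236), chosen after its values were seen, was at 15.4 CPM in D7 and at 0.877 to 1.76 CPM in the other 7 boars. D7 was thus the only high boar for both. The log2 differences of -2.44 for CXCL10 and -2.07 for CXCL9 turned to 0.48 and 0.60 without D7. MX1, an antiviral GTPase, was at 4.43 CPM in D7 and 0.613 to 2.32 CPM in the others, and its log2 difference was -0.48 without D7. ISG15, below the filter, had 38 counts in D7 and 1 to 7 in each other Duroc library, and RSAD2, also below it, had 405 counts in D7 and 23 to 149 in the others. IRF7, the remaining listed gene below the filter, had 31 counts in D7, fewer than the 55, 37 and 40 in D1, D4 and D5. All 5 tested genes of the interferon list lay below 0, with a median of -0.97 and 2 at an unadjusted p under 0.05, CXCL10 and MX1, beside 1.21% of all genes tested. Both of these were highest in D7. Of 6 T cell markers, 5 were found and 2 passed the filter, none was at 0 in all boars, and their summed level was 4.59 to 9.57 CPM in the High and 4.81 to 7.60 CPM in the Low boars, with 7.60 CPM in D7. CD3E had 36 counts in D7 and 0 to 20 in the others, and CD3D had 43 against 3 to 29. CD8A had 28 counts in both D7 and D3 and 0 to 15 in the others. The counts of genes below the filter were not scaled for depth. D3 held 125576407 counts on genes against 60236439 in D7, so equal counts there are not equal levels. CD4 was highest in D1 at 4.53 CPM, with 0.9751 CPM in D7. CD2 was at 4.73 CPM in D7, within a range of 3.38 to 5.44 CPM in the High boars. The part of T cells in the interferon values was not tested.

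Several of the widest ranges over the Duroc boars came from 1 or 2 boars of either label. CYP1A2 (chr7:58779529-58786155), a cytochrome P450 of xenobiotic metabolism, was at 0.124 CPM in D2 and at 36.9 to 106 CPM in the other 7 boars. UBD (chr7:22501130-22502883), a ubiquitin-like modifier, was at 0.552 CPM in D5 and 0.303 CPM in D9, 1 boar of each label, and at 29.9 to 71.6 CPM in the other 6. HPD (chr14:30845608-30857658), an enzyme of tyrosine breakdown, was at 67.9 CPM in D5 and at 1.36 to 8.74 CPM elsewhere. The High boars other than D5 were at 1.36 to 3.87 CPM. With CPM scaled over all 21 libraries the Low boars were at 6.61 to 8.25 CPM. The log2 difference of HPD was 1.04, and -1.65 without D5. For CYP1A2 and UBD the labels did not order the boars, and for HPD they did so only with D5 left out.

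PTPRQ, a receptor phosphatase, was at 2.71, 22.4, 2.71, 8.60 and 2.14 CPM in D1 to D5 and at 0.331, 24.3 and 8.56 CPM in D6, D7 and D9. PRKAG3, a regulatory subunit of AMP-activated kinase, was at 5.60, 0.165, 12.7, 0.651 and 1.45 CPM against 7, 0.336 and 15.1 CPM. The groups overlapped widely for both genes, although no High boar was as low as D6 for PTPRQ. NDST3, an enzyme of heparan sulphate synthesis that was chosen after its values were seen, was at 26.0 CPM in D6 and at 2.77 to 4.63 CPM in the other boars. Its log2 difference was -1.64, and -0.05 without D6. The unnamed gene ENSSSCG00000038346, likewise chosen after its values were seen, was at 17.5 CPM in D9 and 0.622 to 1.57 CPM in the others, and its log2 difference of -2.67 became -0.36 without D9.

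**Figure D4:**
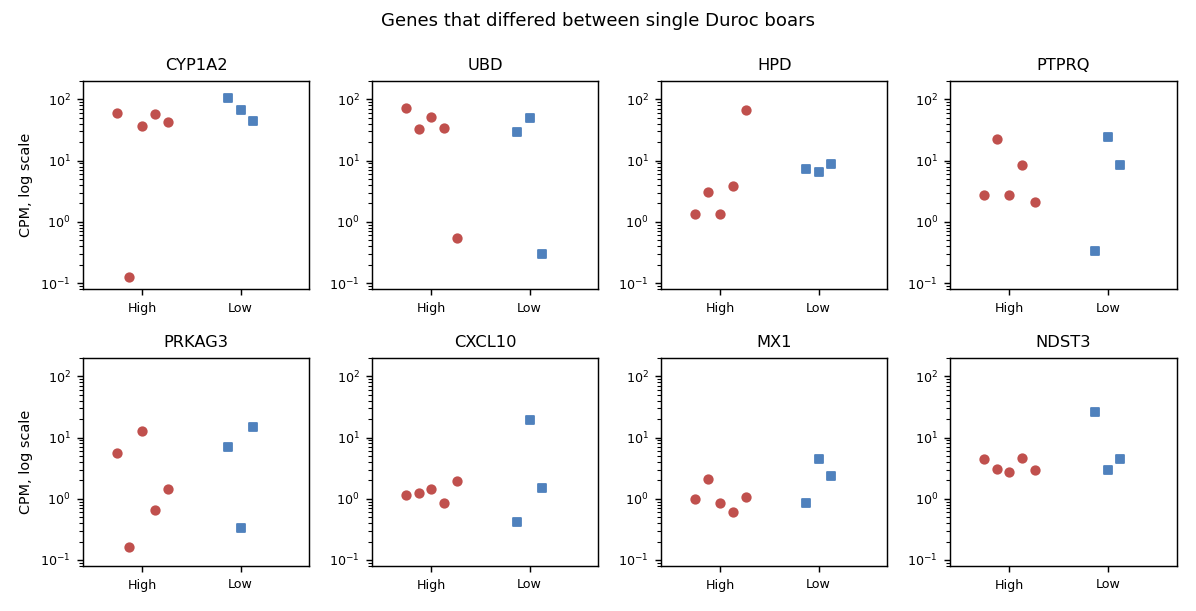
CPM on a log scale for 8 genes in the Duroc boars, circles for D1 to D5 (High) and squares for D6, D7 and D9 (Low) from left to right. Single boars stand apart, such as D2 at 0.124 CPM for CYP1A2, D5 at 67.9 CPM for HPD and D7 at 19.7 CPM for CXCL10.

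A pair of unnamed genes that were near absent in 2 of the 3 Low boars passed the correction only when D9 was left out, and they were chosen after their values were seen. ENSSSCG00000035092 had 13 counts in D6 and 20 in D7 against 624 in D9 and 752 to 2444 in the High boars, and ENSSSCG00000038679 had 10 and 3 counts against 621 in D9 and 559 to 1433 in the High boars. D9 stood close to the High boars in both. On the scale of all 21 libraries the first was at 0.395 to 0.895 CPM in the 8 Landrace boars of the day 0 contrast, above D6 at 0.265 and D7 at 0.327 but below the other Duroc boars, and the second at 23.1 to 29.1 CPM there, above every Duroc boar. Their adjusted p values in edgeR's quasi-likelihood test were 0.000239 and 0.000457 without D9, which compares D6 and D7 with the High boars, and their unadjusted p values with all 8 boars were 0.0425 and 0.194.

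The genes called in the Landrace day 0 contrast were read in the Duroc boars, to see whether the same genes follow the label in both breeds. That contrast shares no library with the Duroc boars, and its signs are those of the deposited labels. The publication's text describes most called genes of that contrast as up-regulated with high hyperactivity, the reverse of the signs used here. With the Landrace signs reversed, the same-sign and opposite-sign counts below would change places. Of its 2682 called genes, 2621 were tested in Duroc, 626 with higher and 1995 with lower values in the Landrace High boars. In Duroc, 1373 of them (52.4%) had the same sign as in Landrace and 1248 the opposite one, beside 7145 of all 12770 genes tested in both breeds (55.95%). By direction, 451 of the 626 higher genes lay above 0 in Duroc and 922 of the 1995 lower genes below 0, beside 4296 of 6709 and 2849 of 6061 among all genes. Of the called genes, 9 (0.343%) had an unadjusted p under 0.05, beside 1.21% of all genes tested in Duroc. The 626 higher genes had a median log2 difference of 0.51 in Landrace and 0.08 in Duroc, and the 1995 lower genes of -1.04 and 0.02, beside 0.04 over all genes in Duroc. The count with the same sign rested on single boars: it was 452 without D9 and 654 without D2, and at most 2002, without D6.

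The Landrace genes varied between Duroc boars without following the label. The mean log2 CPM of the 626 genes higher in the Landrace High boars minus that of the 2056 lower genes was 2.02 to 2.62 in the Landrace Low boars and 3.52 to 4.82 in the Landrace High boars, which the choice of genes fixes. In Duroc it was 2.51, 4.52, 3.82, 2.66 and 2.90 in D1 to D5 and 3.59, 3.53 and 2.47 in D6, D7 and D9. D2, D3, D6 and D7 lay within the Landrace High range, D1 and D9 within the Landrace Low range, and D4 and D5 between the ranges. The group means of 3.28 ± 0.86 (SD, n = 5) and 3.19 ± 0.63 (SD, n = 3) did not differ beyond the spread (two-sided exact permutation test, p = 0.857). The 4 boars with the highest values were the 4 below 0 on dimension 1 of the scaling, which was computed from the same libraries.

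**Figure D5:**
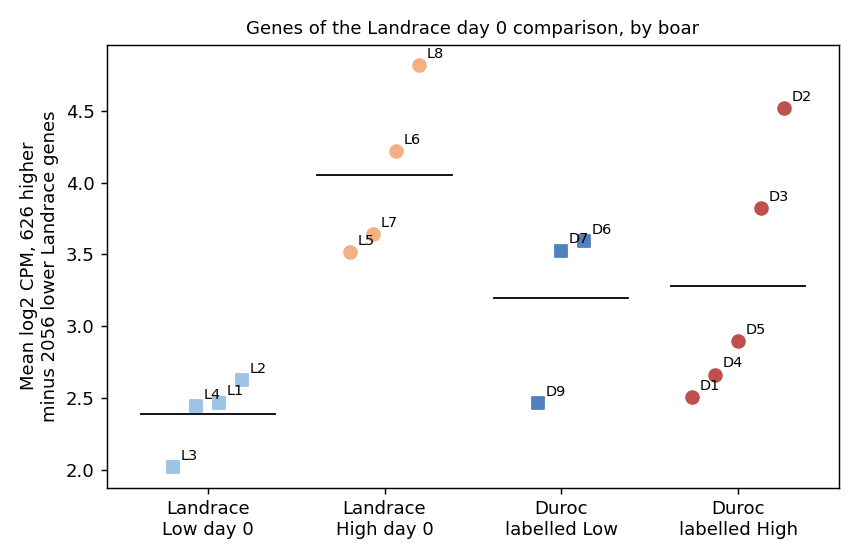
Mean log2 CPM of 626 genes higher in Landrace High boars minus that of 2056 lower genes, for each boar, with group means as lines. The Landrace groups are apart by the choice of genes, and the Duroc boars of both labels span 2.47 to 4.52.

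The publication's 41 genes shared by its Landrace contrasts included 40 that were tested in Duroc. Their median was 0.16, and 33 lay above and 7 below 0, where 58.8% of all genes lay above 0. An unadjusted p under 0.05 was reached by 2 of the 40, beside 1.21% of all genes tested. Of these 40, 26 were lower in the Landrace High boars in the day 0 fit, and 7 of the 26 were lower in the Duroc High boars, while all 14 that were higher in Landrace were above 0 in Duroc too. The list was chosen on the Landrace boars, and 21 of its 40 genes thus had the same sign in both breeds, beside 7145 of 12770 genes. Of 27 genes that the publication discusses for Landrace, 26 were tested in Duroc, 17 lay above and 9 below 0, and their median was 0.17. Of the 25 tested in both breeds, 10 (40%) had the same sign, beside 55.95% of all genes. ARFGAP1 (chr17:62380060-62391836), a regulator of traffic between Golgi and endoplasmic reticulum, was at 15.9, 3.39, 4.28, 13.7 and 12.8 CPM in D1 to D5 and at 4.91, 7.07 and 13.1 CPM in D6, D7 and D9. It was high in D1, D4, D5 and D9, the boars on the positive side of dimension 1, and its log2 difference was 0.26 ± 0.51 (SE), with an interval of -0.87 to 1.39. WNT5A, a secreted signalling protein, and SLC40A1, the iron exporter ferroportin, had log2 differences of 0.53 ± 0.30 and 0.55 ± 0.31 (SE). Their groups overlapped, at 10.1 to 20.04 against 6.47 to 14.3 CPM and at 14.3 to 38.3 against 15.1 to 24.2 CPM. The publication reports WNT5A and SLC40A1 for the change in hyperactivity during storage, which the Duroc labels do not describe.

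Whether the labelled difference itself differed between the breeds was tested in 1 fit of the 8 Duroc and 8 Landrace libraries. Of 12920 genes, 0 (0%) had an adjusted p under 0.05 in edgeR's quasi-likelihood test and 1946 (15.1%) an unadjusted p under 0.05, and the smallest adjusted p was 0.329. The genes named here were chosen among those called in Landrace, so their distance from the Landrace change is a description. DNLZ (ENSSSCG00000034732), a zinc finger partner of the mitochondrial chaperone HSPA9, had the smallest interaction p of them. With CPM scaled over all 21 libraries it was at 2.52 to 4.94 CPM in the Landrace Low boars and 0.338 to 0.830 CPM in the Landrace High boars, but at 1.82 to 4.86 CPM in the Duroc High boars and 2.69 to 3.49 CPM in the Duroc Low boars. No Duroc boar was as low as the Landrace High boars. Its log2 difference was 0.18 ± 0.38 (SE) in Duroc and -2.75 ± 0.37 (SE) in Landrace, a gap of 2.91 ± 0.56 (SE) with an adjusted p of 0.329.

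MAFF, a small MAF transcription factor below the filter in Duroc, was at 1.48 to 3.95 CPM in the Landrace Low boars, 0.555 to 1.34 CPM in the Landrace High boars, 0.515 to 1.60 CPM in the Duroc High boars and 0.327 to 0.591 CPM in the Duroc Low boars on the same scale. FER1L6, a ferlin, was, scaled within Duroc, at 4.42 to 6.55 CPM in the Duroc High boars and at 1.71 to 3.57 CPM in the Duroc Low boars, a log2 difference of 0.89 ± 0.31 (SE), against -0.93 ± 0.29 (SE) in Landrace. KANK1, a regulator of the actin cortex, had 0.92 ± 0.31 in Duroc and -0.55 ± 0.17 in Landrace (SE), and C16orf78 had 0.45 ± 0.19 and -0.85 ± 0.21 (SE). The Duroc values of KANK1 were 32.8, 32.1, 22.3, 40.7 and 15.98 CPM against 10.6, 16.03 and 18.9 CPM, so that D5 lay within the Low range.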

How the data were processed

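Testis RNA of 21 boars was sequenced by the authors on a HiSeq instrument as single reads from stranded mRNA libraries. Per the methods, reads were trimmed with Trimmomatic 0.36, aligned with STAR to the Sscrofa11.1 genome and counted per Ensembl gene with HTSeq in reverse stranded mode. The deposited values are raw read counts for 25880 genes, and 5 tally lines per file, which held 29.4% to 39.0% of the lines' total in Duroc, were left out. Names came from an identifier table (14857 genes) and from identifier and symbol pairs in the supplement (15014 in all), and positions by symbol from RefSeq on Sscrofa11.1.

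Genes that reached 1 CPM in 4 or more of the 8 libraries were tested with edgeR 4.0.16 (R 4.3.3, TMM scaling, quasi-likelihood test, Benjamini-Hochberg threshold 0.05), without covariates. CPM values are TMM-scaled over the Duroc libraries unless stated. log2 CPM used a prior count of 2. Single values were compared with two-sided exact permutation tests. The fits were also run on simulated data, which does not measure what they could detect in these boars. DESeq2 1.42.0, other scalings and filters, thinning and leaving out each boar were alternatives. Nothing says that boars were pooled, and p-values measure the spread between these boars.

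The comparison, the gene lists and the tests were chosen with earlier results of these data known. The genes named were the 10 with the smallest p, the 5 highest and 5 lowest differences among those with an unadjusted p under 0.05 and no overlap, genes of the publication's Landrace lists, the 3 smallest p and the most abundant member of each other list, 5 genes by interaction p and 6 by range over boars. Not all genes that this rule selects are printed. Genes whose symbol was shared by several identifiers are given by identifier.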

Additional observations from a re-analysis of the deposited data

Results flagged for a closer look

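Of 84 values checked in the 5 High boars, 2 had a boar farther from its nearest neighbour than Dixon's 95% value of 0.71 allows, and chance gives about 1 in 20. HPD was at 67.9 CPM in D5, against 1.36 to 3.87 CPM in the other High boars. The mean of the Sertoli markers stood at 0.43 log2 units above the average of the boars in D1, against -0.15 to -0.001 in the other High boars. The 3 Low boars were too few for this check, so D7 for the interferon genes was not covered by it.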

How the results depend on the processing

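The Duroc comparison gave 0 adjusted calls under the likelihood ratio test, DESeq2, RLE scaling, 3 other filters, the robust fit, the fit of all 21 libraries, without mitochondrial genes and after thinning, and 0 to 2 when 1 boar was left out, the 2 without D9. The unadjusted count of 158 was 385 without the filter and 99 (without D6) to 321 (without D9) with 1 boar left out. The interaction gave 0 calls, except 3 under the likelihood ratio test (MAFF, DNLZ and ENSSSCG00000032274) and 0 to 1 with 1 boar left out, the 1 being ENSSSCG00000038679 without D9. Same-sign genes of the Landrace contrast numbered 452 to 2002 with 1 boar left out. The difference on dimension 1, 0.16, was -0.003 (p = 1, exact permutation test) with all tested genes, and -0.24 to 0.67 with 1 boar left out.

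For 53 genes with a fold change, 7 of 579 alternatives turned the direction. Adjusted p values stayed far above the threshold, so the rest says nothing of their stability, and some kept their sign only near 0, such as NDST3 at -0.05 without D6. With 1 boar left out, CXCL10 ran from -2.99 to 0.48, CXCL9 from -2.58 to 0.60, ARFGAP1 from -0.01 to 0.74, UBD from -0.061 to 1.34, HPD from -1.65 to 1.32, PTPRQ from -1.46 to 0.80 and PRKAG3 from -1.97 to 0.18. The cause was not tested. No paired analysis was possible because the groups share no replicate number in the labels. Thinning to the smallest library left 166 unadjusted calls. The likelihood ratio test was not run for the same-sign count. The conflict between labels and published list concerns every result.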
